A study of Capra hircus with 11 samples.

Results

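CCL17 and CXCL12 are a pair of secreted chemokines, small proteins that guide migrating cells, and they were followed here through droplet single-cell RNA sequencing of goat cells that were being converted from fibroblasts to mammary epithelial cells. The rows with the symbols CCL17 and CXCL12 were taken from each of the 5 deposited tables, which makes 2 of the 16677 gene symbols that the tables hold. The pair was selected on its levels (CPM) in these same tables, so those levels are given as a description and carry no test. CCL17, also called TARC, is known as the ligand of the receptor CCR4 and draws T helper 2 and regulatory T cells; dendritic cells make it, and so do stimulated keratinocytes. CXCL12, also called stromal cell-derived factor, is made in steady state by fibroblasts and other stromal cells, signals through CXCR4 and is taken up by ACKR3. In the breast, stromal fibroblasts around the ducts are a known source of CXCL12.

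The labels name 11 goat samples in 5 groups. BFRTV0d was 3 samples of ear fibroblasts at day 0, BFRTV4d was 3 samples of such cells after 4 days in BFRTV induction medium, and BFRTV8d was 2 samples after 8 days, when the labels call them induced mammary epithelial cells. CiMECs was 1 sample of day 8 cells that had been passaged on in goat mammary epithelial cell medium, and GMECs was 2 samples of mammary epithelial cells that the labels call naturally derived. The protocol names Matrigel-coated plates, and the labels name no transgene. Each group was deposited as 1 pooled table whose cell names carry no sample, so every group was 1 library here, no value has a replicate, and a difference is one between libraries and not shown to be one between conditions. Values are unique molecular identifiers (UMIs), which count captured RNA molecules by their 3′ end, and CPM is a gene's UMI count after all tables were scaled to the same total, with no division by gene length.

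The tables held 10670 cells at day 0, 10203 at day 4, 10152 at day 8, 5188 in CiMECs and 5641 in GMECs, with 97203521 to 117500853 UMIs per table and a median of 9089 to 19424 UMIs per cell. The tables fall into a pair of sets. Ribosomal protein genes are absent from the BFRTV tables, whose shallowest cell has 1951 UMIs, whereas the CiMECs and GMECs tables list 74 such genes with 25.6% and 35.0% of their UMIs and hold cells down to 500 UMIs. Fold differences that cross the sets were taken over UMIs outside ribosomal protein genes, whereas levels are over all UMIs of a table unless stated, and the effects of table set and of group cannot be told apart in such a comparison. Any pair of tables shared 37 to 147 cell barcodes, at most 1.73% of a table, and their part in the values was not tested. All intervals are 95% intervals for counting error only.

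CCL17 was low through the 8 days of induction and was among the most abundant transcripts of both mammary cultures. Its level was 23.5 CPM at day 0 (22.6 to 24.4), 43.4 CPM at day 4 (42.2 to 44.7) and 8.05 CPM at day 8 (7.51 to 8.62). In CiMECs it stood at 15124 CPM (15100 to 15149) and in GMECs at 21899 CPM (21871 to 21926). CCL17 thus made up 1.51% of all UMIs of CiMECs, where it ranked 4 of 14049 genes, and 2.19% of those of GMECs, where it ranked 1 of 14237. In the BFRTV tables its rank was 5431 at day 0, 2866 at day 4 and 8537 at day 8. In such sums over a table, fewer cells of a type and less RNA per cell cannot be told apart, which is why levels by class of cell follow.

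CXCL12 differed from CCL17 in being absent from the lists of both mammary cultures, while among the BFRTV tables both genes were highest at day 4. Its level was 18.5 CPM at day 0 (17.7 to 19.2), 467 CPM at day 4 (463 to 471) and 82.1 CPM at day 8 (80.3 to 83.8), which put it at rank 6215, 258 and 1787 of the listed genes in turn. Neither CiMECs nor GMECs lists CXCL12. Those tables list genes found in 6 or more cells, so the gene was set at 6 UMIs there, a level of 0.0617 CPM in CiMECs and 0.0541 CPM in GMECs. Genes found in exactly 6 cells had a median sum of 6 UMIs in either table and a highest sum of 36 UMIs in CiMECs and 9 in GMECs. The plot of levels by table shows both genes on 1 axis.

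**Figure D1:**
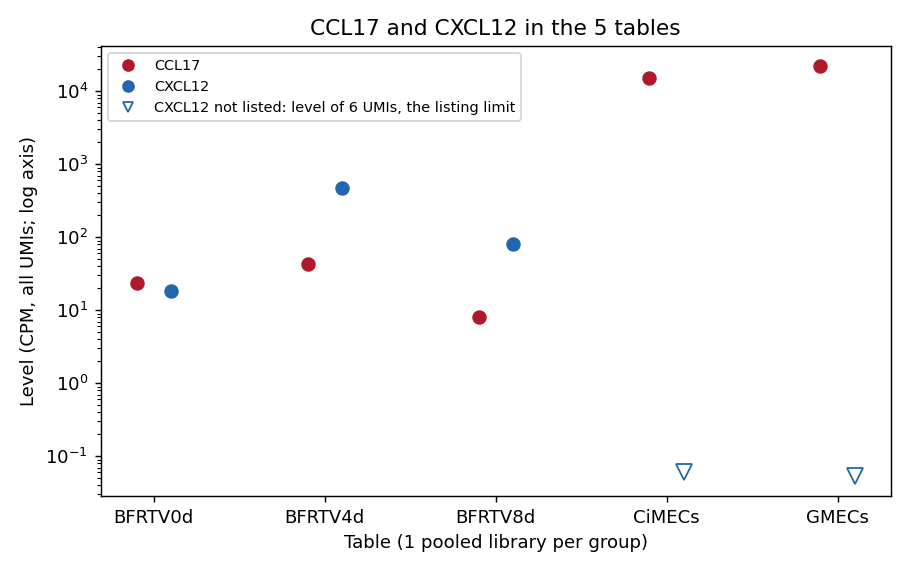
Level of CCL17 and CXCL12 in CPM (log axis) in the 5 tables, with 95% counting intervals that are mostly smaller than the points; open triangles mark the level of 6 UMIs for CXCL12 where the table does not list it. CCL17 lies between 8.05 and 43.4 CPM in the BFRTV tables and at 15124 and 21899 CPM in CiMECs and GMECs, while CXCL12 peaks at 467 CPM at day 4.

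During induction the day 4 table stood out for both genes. CCL17 was 1.85-fold higher at day 4 than at day 0 (1.77 to 1.94), and CXCL12 was 25.3-fold higher (24.3 to 26.4). Among the 8948 genes with at least 10 CPM in either of these tables, 5.35% passed a 4-fold limit upward at day 4 and 5.77% downward, so that CXCL12 lay in the higher class and CCL17 in neither. At day 8 CCL17 was 2.91-fold lower than at day 0 (2.70 to 3.15), and CXCL12 was 4.45-fold higher (4.24 to 4.66), against 10.3% of genes that passed the limit upward and 9.81% downward. Between day 8 and day 4 both were lower at day 8, CCL17 by 5.40-fold (5.01 to 5.82) and CXCL12 by 5.69-fold (5.56 to 5.83). In that comparison 2.52% of genes passed the limit downward and 2.26% upward.

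The day 0 value of CCL17 rested on few cells. The 534 day 0 cells with the most UMIs held 49.9% of its UMIs and 11.4% of all UMIs, and 1 cell with 274 CCL17 UMIs held 9.94%. Without the 5% of cells with the most UMIs in each table, CCL17 at day 4 was 3.19 times its day 0 level, and at day 8 it was 0.626 times its day 0 level. By the marker classes defined below, 261 of the 534 day 0 cells left out (48.9%) were epithelial-marked, against 6.34% of all day 0 cells. The day 8 over day 0 ratio of CXCL12 was 3.88 without those cells, under the 4-fold limit.

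CiMECs were then set against day 8, GMECs against the day 0 fibroblasts, and the mammary cultures against each other. GMECs are labelled naturally derived and not induced from those fibroblasts, so their ratio to day 0 is no change over time. CCL17 in CiMECs was 2526-fold higher than at day 8 (2360 to 2707), and in GMECs it was 1435-fold higher than in day 0 fibroblasts (1383 to 1491). Other totals, scalings, cell filters and the added UMIs of a neighbouring gene put these folds between 1179 and 4397 and between 933 and 2414, far wider than the counting intervals. The 4-fold limit was passed upward by 2.96% and downward by 17.7% of genes in CiMECs over day 8, and by 6.04% and 11.7% in GMECs over day 0. Set at 6 UMIs, CXCL12 was 989-fold lower in CiMECs than at day 8 and 222-fold lower in GMECs than at day 0. These folds are no bounds, since an unlisted gene can hold over 6 UMIs in few cells, and the CiMECs level was 0.00168 times that of day 8 with TMM factors and 0.00176 times with median-of-ratios factors, against 0.00101 times here. These comparisons cross the table sets.

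CiMECs and GMECs come from the same table set. CCL17 was 1.45-fold lower in CiMECs than in GMECs (1.445 to 1.451), where 2.69% of genes passed the 4-fold limit upward and 3.08% downward. Across the alternative scalings and cell filters tried, the CiMECs level was 0.604 to 0.874 times the GMECs level, so the difference kept its direction and stayed small beside the distance of either culture from the BFRTV tables. No fold is given for CXCL12, since neither table lists it.

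The order of the tables by CCL17 was thus GMECs, CiMECs, day 4, day 0 and day 8, and by CXCL12 it was day 4, day 8 and day 0, followed by CiMECs and GMECs without a listed value. The counting intervals of neighbours in these orders did not overlap. How far libraries of 1 group differ is not known from these tables, so it cannot be said which neighbours differ beyond such a spread.

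Over single cells the genes were spread in different ways. In GMECs 5640 of 5641 cells had a CCL17 UMI, with a median of 236 UMIs per cell and a highest count of 6343. In CiMECs 5170 of 5188 cells (99.7%, 99.5 to 99.8) had one, with a median of 172 and a highest count of 2427. CCL17 was therefore found in nearly every cell of the mammary cultures and not in a subset. The spread between cells was still wide, since the range from the 5th to the 95th percentile was 13.4 to 350 CCL17 UMIs per 10000 UMIs in CiMECs and 54.1 to 553 in GMECs. No class of cells in these cultures lacked CCL17, so the share that free RNA in the droplets would give could not be measured there.

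In the BFRTV tables CCL17 was found in a minority. At day 0, 464 cells (4.35%, 3.97 to 4.75) had a CCL17 UMI, at day 4 it was 1419 cells (13.9%, 13.2 to 14.6), and at day 8 it was 445 cells (4.38%, 3.99 to 4.80). The day 0 and day 8 shares have overlapping intervals, while the CPM at day 8 was 2.91-fold lower. Cells with 10 or more CCL17 UMIs numbered 6 at day 8 and 73 at day 0. The 1% of cells with the most CCL17 held 76.1% of its UMIs at day 0, 36.5% at day 4 and 53.4% at day 8.

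CXCL12 was found in 1680 cells at day 0 (15.7%, 15.1 to 16.4), in 5899 at day 4 (57.8%, 56.9 to 58.8) and in 998 at day 8 (9.83%, 9.26 to 10.4). No day 0 cell held over 7 CXCL12 UMIs, and its variance over cells was 1.42 times its mean, where Poisson counts give 1. At day 4, 2044 cells had 10 or more CXCL12 UMIs with a highest count of 64. Fewer day 8 cells than day 0 cells had a UMI, and yet the CPM was 4.45-fold higher at day 8, where 311 cells had 10 or more and the highest count was 84. The CXCL12 UMIs of day 8 thus lay in cells with higher counts than those of day 0.

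**Figure D2:**
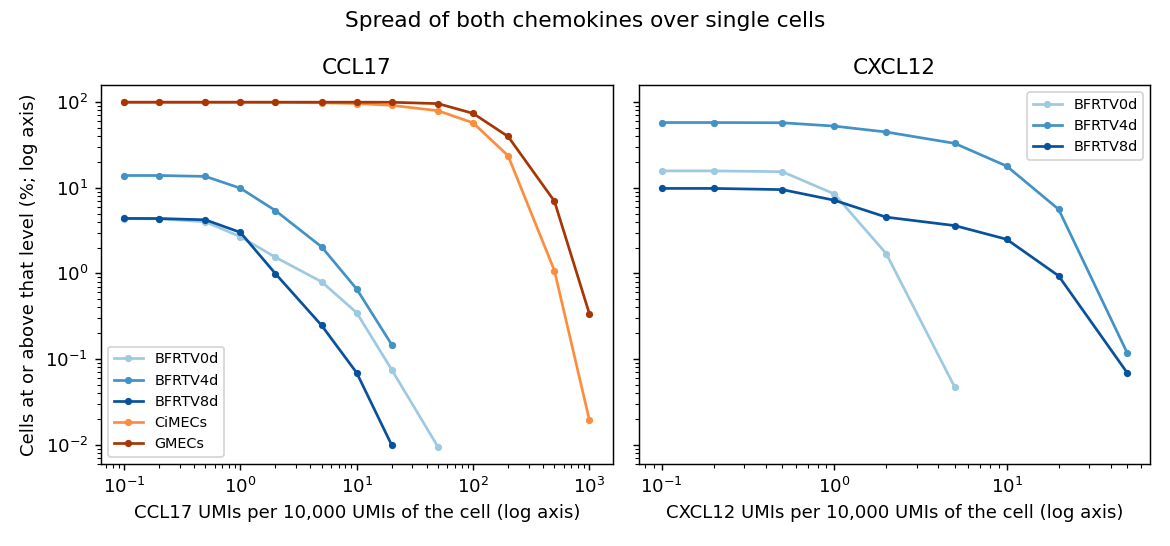
Percent of cells (log axis) with at least a given number of CCL17 (left) or CXCL12 (right) UMIs per 10000 UMIs of the cell (log axis), 1 line per table; lines end where no cell is left. The CCL17 lines of CiMECs and GMECs lie far to the right of the BFRTV lines, and the day 0 and day 8 lines of CXCL12 cross.

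When each cell was thinned to 3000 UMIs outside ribosomal protein genes, so that depth was equal, CCL17 was found in 2.02% of cells at day 0 (1.76 to 2.30), 6.82% at day 4 (6.34 to 7.33) and 1.88% at day 8 (1.63 to 2.17). The same share was 99.6% in CiMECs and 100% in GMECs. CXCL12 was found in 5.38% of thinned cells at day 0 (4.96 to 5.82), 44.2% at day 4 (43.2 to 45.2) and 5.72% at day 8 (5.27 to 6.19). Thinning left out 45 cells at day 4, 8 at day 8, 938 in CiMECs and 961 in GMECs. The day 0 and day 8 shares of CXCL12 had overlapping intervals after thinning, unlike those before it.

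The cells of each table were then split by the summed UMIs of 14 fibroblast genes such as COL1A1, COL3A1 and LUM and of 20 epithelial genes such as KRT5, KRT8 and EPCAM. A cell with at least 5 UMIs of a list and at least 3 times as many as of the other list was called epithelial-marked or mesenchymal-marked. Such classes are ranges of a score and not cell types, and 150 cells at day 0, 1027 at day 4 and 330 at day 8 lay within 2-fold of a limit. Epithelial-marked cells were 676 at day 0 (6.34%), 4912 at day 4 (48.1%) and 9706 at day 8 (95.6%), and mesenchymal-marked cells were 9865, 4556 and 313 in the same order. The day 0 table, labelled ear fibroblasts, therefore held a minority of cells with epithelial marker RNA. CiMECs held 5162 epithelial-marked and 4 mesenchymal-marked cells, and GMECs held 5635 and none. The summed fibroblast list stood at 13155 CPM at day 0, 3188 CPM at day 4, 537 CPM at day 8, 13.7 CPM in CiMECs and 0.712 CPM in GMECs.

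CCL17 was higher in epithelial-marked than in mesenchymal-marked cells of every BFRTV table. At day 0 these cells had 173 CPM (166 to 180) and the mesenchymal-marked cells 3.11 CPM (2.78 to 3.47), a 55.5-fold difference (49.4 to 62.7), so 6.34% of the cells held 80.3% of the CCL17 UMIs. At day 4 the values were 85.0 CPM in epithelial-marked and 2.39 CPM in mesenchymal-marked cells, a 35.6-fold difference (29.4 to 43.5). At day 8 they were 8.45 CPM in epithelial-marked and 0.815 CPM in mesenchymal-marked cells, the last from only 3 UMIs, a 10.4-fold difference (3.54 to 50.4). At that day 95.6% of the cells were epithelial-marked, and they held 99.0% of the CCL17 UMIs. Cells of neither class held CCL17 too, at 88.4 CPM in 129 cells at day 0 and 19.8 CPM in 735 cells at day 4. They had 8.20% of its UMIs at day 0 and 4.53% at day 4.

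The share of cells with a CCL17 UMI followed the same split. At day 0 it was 38.3% of epithelial-marked cells (median depth 16292 UMIs) and 1.64% of mesenchymal-marked cells (median depth 9890 UMIs). After thinning these shares were 20.1% and 0.588%. At day 4 they were 25.02% and 1.80% before thinning and 13.1% and 0.506% after it. At day 8 they were 4.51% and 0.958% before thinning and 1.94% (1.67 to 2.23) and 0.319% (0.00809 to 1.77) after it, with overlapping intervals. The share in mesenchymal-marked cells was read as the background, and that in epithelial-marked cells was above it at days 0 and 4. At day 8 the epithelial-marked share was above the background before thinning (4.11 to 4.94 against 0.198 to 2.78). After thinning it was not clearly so, with a UMI in 1 of 313 mesenchymal-marked cells.

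Within the epithelial-marked cells CCL17 was lower at each later day, unlike in the whole tables. Their level at day 4 was 2.04-fold lower than at day 0 (1.93 to 2.14), at day 8 it was 20.5-fold lower than at day 0 (18.9 to 22.2), and at day 8 it was 10.1-fold lower than at day 4 (9.33 to 10.8). The day 4 table had the higher CCL17 level over all cells, with 4912 epithelial-marked cells at day 4 and 676 at day 0, and the lower level within that class. These ratios changed little without the deepest 5% of cells, at 2.16-fold lower, 21.1-fold lower and 9.78-fold lower in the same order. Epithelial-marked cells of CiMECs were 2401-fold above those of day 8 (2243 to 2574), and those of GMECs were 195-fold above those of day 0 (187 to 203), again across table sets.

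CXCL12 was higher in mesenchymal-marked than in epithelial-marked cells of every BFRTV table. At day 0 it stood at 21.0 CPM in mesenchymal-marked cells (20.1 to 21.9) and at 0.547 CPM in epithelial-marked cells (0.220 to 1.13, from 7 UMIs), a 38.3-fold difference (18.6 to 95.4). At day 4 the levels were 937 CPM in mesenchymal-marked and 40.6 CPM in epithelial-marked cells, a 23.1-fold difference (22.1 to 24.1), and at day 8 they were 1462 CPM in mesenchymal-marked and 12.6 CPM in epithelial-marked cells, a 116-fold difference (109 to 124). The level in epithelial-marked cells was thus also higher at day 4 than at day 0, by 74.3-fold (36.0 to 185). A CXCL12 UMI was found in 1.04% of these cells at day 0, 19.2% at day 4 and 5.90% at day 8. How much of that share is background was not tested. Under stricter limits, at least 10 UMIs and a 10-fold excess, the epithelial-marked levels were 18.5 CPM at day 4 and 6.46 CPM at day 8, against 40.6 and 12.6 CPM under the first limits. Cells of neither class also held CXCL12. At day 8 these 133 cells had 872 CPM and 22.0% of its UMIs, beside 63.5% in mesenchymal-marked cells, and under the stricter limits 611 cells of neither class had 894 CPM and 82.4%, beside 10.3% in mesenchymal-marked cells.

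In mesenchymal-marked cells CXCL12 was highest at day 8 and not at day 4. Its level in these cells was 44.7-fold higher at day 4 than at day 0 (42.8 to 46.7), 69.8-fold higher at day 8 than at day 0 (66.3 to 73.4) and 1.56-fold higher at day 8 than at day 4 (1.52 to 1.60). A CXCL12 UMI was found in 16.8% of these cells at day 0, 94.5% at day 4 and 97.8% at day 8, with medians of 0, 7 and 13 UMIs per cell. The summed UMIs of the 7-gene contractile list were also higher in the day 4 and day 8 cells of this class. Their median per cell was 13 at day 0, 37 at day 4 and 19 at day 8. Over all day 4 cells, 5 of the 6 contractile genes with at least 10 CPM were at least 4-fold higher than at day 0. These were ACTA2, MYH11, ACTG2, CNN1 and MYLK, beside 5.35% of all genes past that limit. The other one, TAGLN, was 1.69-fold lower at day 4, with 1318 CPM at day 0 and 779 CPM at day 4. The part of these genes in the CXCL12 values was not tested. In the whole tables the level was 5.69-fold lower at day 8 than at day 4, while the mesenchymal-marked cells numbered 313 at day 8 and 4556 at day 4. The day 8 value rests on those 313 cells, and on 50 cells with 1629 CPM under the stricter limits.

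**Figure D3:**
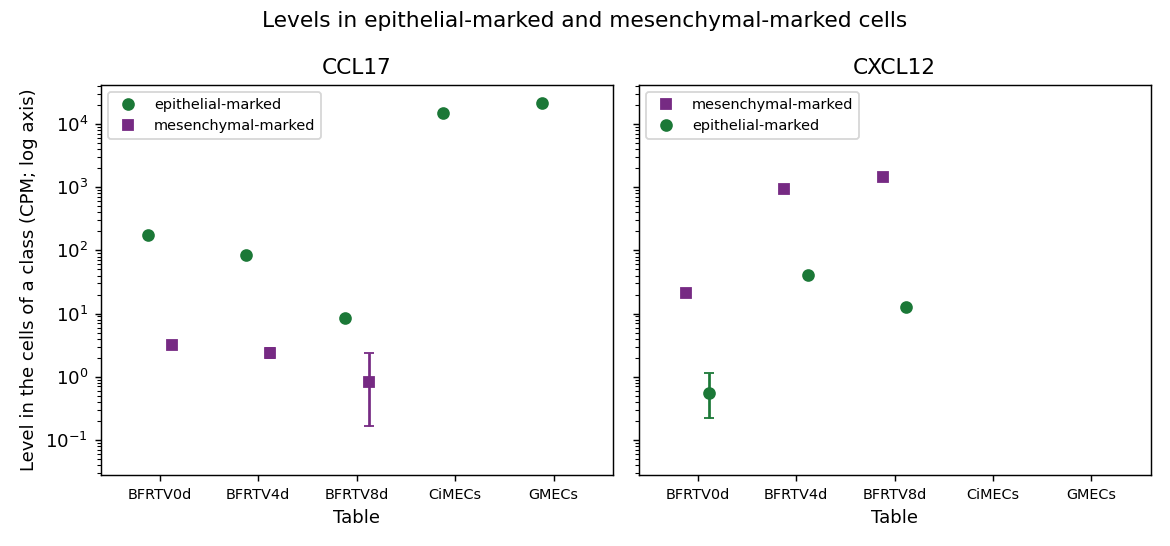
Level of CCL17 (left) and CXCL12 (right) in CPM (log axis) in epithelial-marked (circles) and mesenchymal-marked (squares) cells of each table, with 95% counting intervals; classes under 50 cells and tables that do not list CXCL12 are not drawn. CCL17 in epithelial-marked cells stands at 173, 85.0 and 8.45 CPM over the 3 days and at 15092 and 21899 CPM in CiMECs and GMECs, while CXCL12 in mesenchymal-marked cells reaches 1462 CPM at day 8.

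Few cells held both chemokines. At day 0, 40 cells had a UMI of both, where independence over all cells would give 73.1. At day 4 it was 429 cells against 820, and at day 8 it was 29 against 43.7. Within the classes of day 4 the counts lay near independence, with 254 epithelial-marked cells against 236 and 77 mesenchymal-marked cells against 77.5. At day 0 it was 1 epithelial-marked cell against 2.68 and 36 mesenchymal-marked cells against 27.2, and at day 8 it was 22 against 25.9 and 3 against 2.93 in the same order.

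The 4 mesenchymal-marked cells of CiMECs, too few for a comparison, all held CCL17. Together they had 5067 CCL17 UMIs, a level of 44370 CPM, with a median of 247 fibroblast-list UMIs, 13.5 epithelial-list UMIs and 298 UMIs of 7 contractile genes per cell.

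CCL17 in the mammary cultures was also read by the depth of the cells, a choice made after its values were seen. In CiMECs its level was 10570 CPM in the 342 cells with 500 to 1000 UMIs and 16107 CPM in the 1851 cells with 20000 to 40000. In GMECs it was 30989 CPM in the 494 cells with 500 to 1000 UMIs, 15141 CPM in the 1739 cells with 10000 to 20000 and 30580 CPM in the 337 cells with 40000 or more. The order of the cultures by CCL17 thus held in each depth range, and the gap was narrowest at 10000 to 20000 UMIs, where CiMECs had 13898 CPM. Ribosomal protein genes took 37.8% of the GMECs UMIs in that range and 23.5% in the shallowest one.

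The gene whose profile over the tables was most like that of CCL17 was its neighbour. In RefSeq's ARS1.2 annotation of the goat, from which names and gene order alone were taken, the protein-coding gene LOC102169211 lies next to CCL17 on one side, and CX3CL1, a membrane-bound chemokine, lies next to it on the other, followed by CCL22, the other ligand of CCR4, which no table lists. LOC102169211 has no gene name in the files or that annotation. Its level was 19.3 CPM at day 0, 67.2 CPM at day 4, 18.6 CPM at day 8, 8219 CPM in CiMECs and 9465 CPM in GMECs. CX3CL1, from the same neighbourhood, lay between 0.349 and 7.65 CPM over UMIs outside ribosomal protein genes.

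The 2 neighbours were not in a fixed ratio. There were 1.22 CCL17 UMIs per LOC102169211 UMI at day 0 (1.15 to 1.29), 0.647 at day 4 (0.623 to 0.671), 0.433 at day 8 (0.399 to 0.470), 1.84 in CiMECs (1.835 to 1.845) and 2.31 in GMECs (2.309 to 2.319). LOC102169211 was found in 47.6% of the day 0 cells with CCL17 and in 2.61% of those without it, and in 58.5% and 11.4% at day 4. It too was higher in epithelial-marked cells, with 125 CPM there and 4.17 CPM in mesenchymal-marked cells at day 0. Whether reads of one gene could be counted for the other was not tested, and with the UMIs of both added the day 8 level was 0.623 times that of day 0, the CiMECs level 1179 times that of day 8 and the GMECs level 1128.5 times that of day 0.

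**Figure D4:**
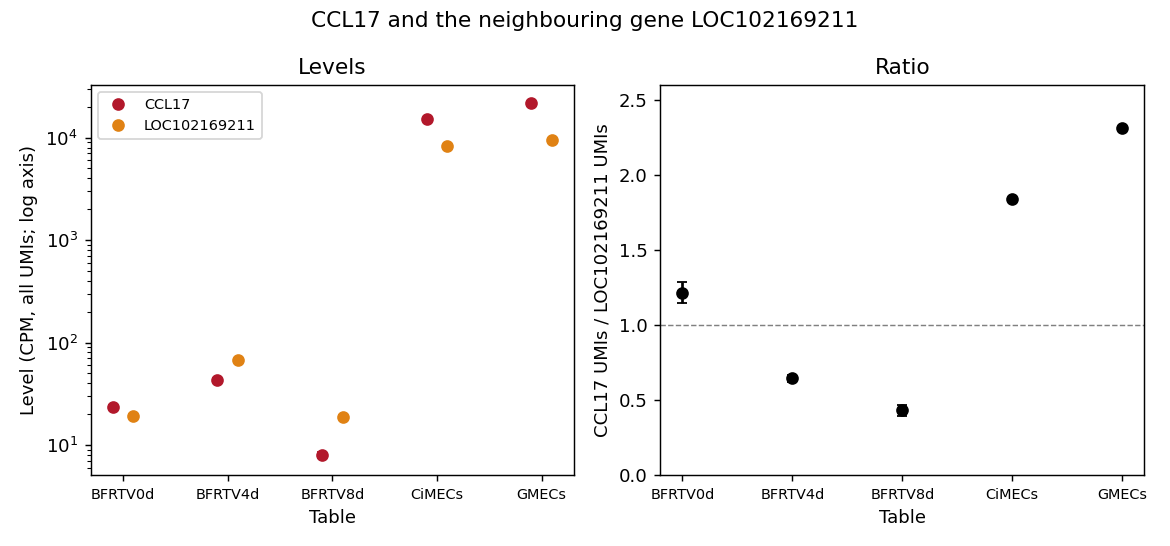
Left, level of CCL17 and of its neighbour LOC102169211 in CPM (log axis) by table; right, CCL17 UMIs per LOC102169211 UMI, with a dashed line at 1; bars are 95% counting intervals. LOC102169211 reaches 8219 CPM in CiMECs and 9465 CPM in GMECs, and the ratio is lowest at day 8 (0.433) and highest in GMECs (2.31).

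Likeness over the tables was measured as the root mean square difference of log2(CPM + 1) profiles, each centred on its own mean. These profiles, but not the 50 CPM minimum, were taken over UMIs outside ribosomal protein genes. Over the 5 tables and 4023 genes with at least 50 CPM in a table, LOC102169211 came first for CCL17 with a difference of 0.88, ahead of ANKRD1, a nuclear repressor induced by mechanical stress (1.44), KRT18, a keratin of simple epithelia (2.28), CST6, a secreted cysteine protease inhibitor (2.37) and DKK1, a secreted WNT antagonist (2.39). For CXCL12 only the 3 BFRTV tables could be used. There gene10628 (0.62), LOC102169371 (0.62), EPAS1, the hypoxia-inducible factor 2 alpha (0.68), gene26270 (0.70) and LAMB1, a laminin chain (0.71), came first among 3982 genes. With so few tables many genes have a like profile.

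Over single cells the genes most like CCL17 differed from those most like CXCL12. Pearson correlations of log(1 + UMIs per 10000) are descriptive here, since cells of a table share a library. In the 5641 GMECs cells CCL17 went with LOC102169211 (r = 0.78), SPP1, or osteopontin, a secreted milk phosphoprotein (0.62), CST6 (0.58), TIMP1, a metalloproteinase inhibitor (0.57), and S100A2, a calcium-binding protein of basal epithelium (0.57). Its lowest values were with LOC102168701 (−0.37), PTMA (−0.36), HNRNPA1 (−0.36), MYBL2, a cell cycle transcription factor (−0.36), and HMGN1 (−0.35). In the 5188 CiMECs cells LOC102169211 (0.72), CST6 (0.49), WFDC2 (0.49) and SPP1 (0.48) led. At day 0 the genes were CXADR (0.47), KRT18 (0.45), KRT7 (0.45), KRT19 (0.45) and WFDC2 (0.45), all but WFDC2 being junction or keratin genes of simple epithelia. In the 10203 day 4 cells LOC102169211 (0.56), DUT (0.30), S100A2 (0.30), LOC102176495 (0.30) and PTMA (0.30) led, so PTMA had the opposite sign there to that in GMECs. The CiMECs, day 0 and day 4 readings were added after the values were seen.

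In the 10203 day 4 cells CXCL12 went with PRRX1, a mesenchymal transcription factor (0.79), MMP2, a protease known to cleave CXCL12 (0.77), the fibrillar collagen genes COL3A1 (0.77) and COL1A1 (0.75), and FTH1, the ferritin heavy chain (0.74). Its lowest values were with S100A2 (−0.75), S100A10 (−0.72), KRT5 (−0.72), KRT14 (−0.72) and LOC102179515 (−0.71). At day 8, read afterwards, PRRX1 (0.82), COL3A1 (0.81), MMP2 (0.81), LUM (0.79) and COL1A1 (0.79) led. COL3A1, COL1A1, LUM, KRT5 and KRT14 belong to the lists that define the marker classes.

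Of 42 chemokine ligand symbols searched, 19 were found in any table and 8 reached 10 CPM in 1 of them. CCL20, which draws CCR6-bearing cells to epithelia, had 86.2, 69.4 and 323 CPM at day 0, 4 and 8, then 1630 CPM in CiMECs and 97.8 CPM in GMECs. CXCL8, the neutrophil attractant, had 802, 611 and 2397 CPM over the 3 days, with 469 CPM in CiMECs and 35.4 CPM in GMECs. CCL20 was thus 16.7-fold and CXCL8 13.3-fold higher in CiMECs than in GMECs, whereas CCL17 was 1.45-fold lower. CXCL14, a chemokine of skin epithelium and fibroblasts, had its highest BFRTV level at day 4 like CXCL12, with 33.2, 106 and 68.0 CPM over the 3 days, and stood at 2.04 CPM in CiMECs and 12.9 CPM in GMECs.

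The remaining 3 ligands were low. CCL28, a mucosal epithelial chemokine also found in milk, had 0.587, 5.07 and 29.1 CPM over the 3 days, 21.2 CPM in CiMECs and 9.60 CPM in GMECs. Over UMIs outside ribosomal protein genes CCL5 ranged over the tables between 3.63 and 20.5 CPM, and CXCL16 between 12.6 and 68.8 CPM. In day 8 over day 4, 3 of the 8 ligands tested were at least 4-fold higher (CCL5, CCL20 and CCL28) and 2 at least 4-fold lower, CCL17 and CXCL12 themselves, which were selected on these values. Over all genes 2.26% were higher and 2.52% lower by that limit. The median log2 ratio of the list there was 1.25, beside 0.12 over all genes. In CiMECs over GMECs the counts were 2 higher (CCL20 and CXCL8) and 1 lower (CXCL14) of 7, beside 2.69% and 3.08% of all genes, with medians of 1.14 for the list and −0.26 for all genes.

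**Figure D5:**
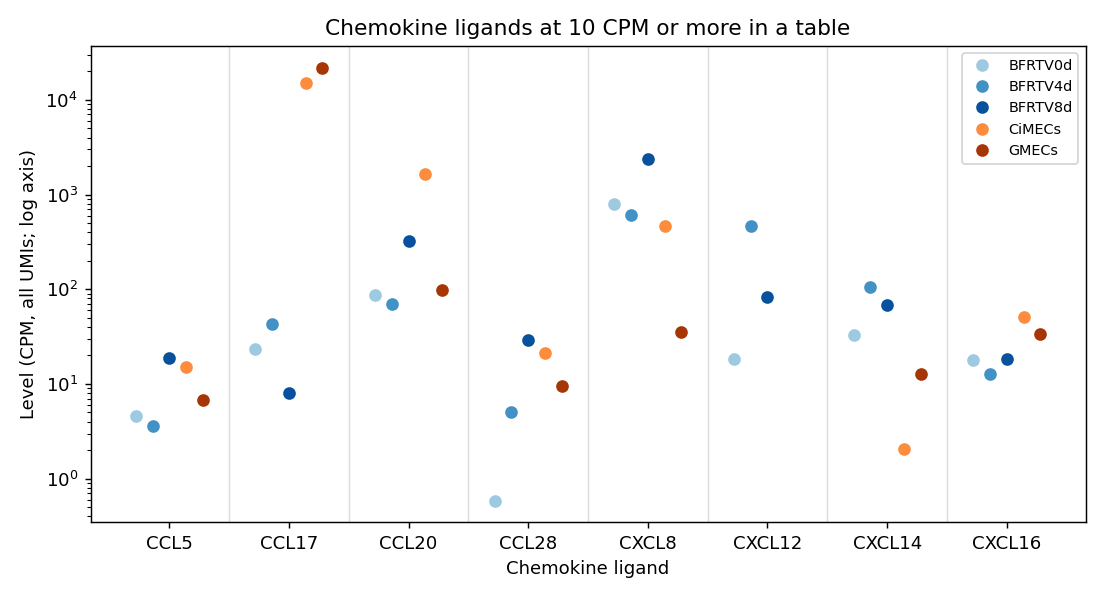
Level in CPM (log axis) of the 8 chemokine ligands that reach 10 CPM in a table, 1 point per table in the order BFRTV0d, BFRTV4d, BFRTV8d, CiMECs and GMECs; no point is drawn where the table does not list the gene. CCL17 in CiMECs and GMECs lies above every other ligand, and CXCL12 has points in the BFRTV tables only.

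Receptors for these ligands were scarce. Of 24 receptor symbols 9 were found, and 3 reached 10 CPM. CCR4, the receptor of CCL17, was listed in no table. CXCR4, the signalling receptor of CXCL12, had 2.03 CPM at day 0, 3.34 CPM at day 4, 10.4 CPM at day 8, 0.0823 CPM in CiMECs and 0.613 CPM in GMECs. ACKR3, the scavenging receptor, had 16.3, 69.0 and 26.4 CPM over the 3 days, 9.002 CPM in CiMECs and 14.6 CPM in GMECs. It was 4.25-fold higher at day 4 than at day 0 (4.04 to 4.47), when CXCL12 was 25.3-fold higher. Over UMIs outside ribosomal protein genes ACKR3 had 12.1 CPM in CiMECs and 22.4 CPM in GMECs, the latter 1.38-fold above day 0 (1.29 to 1.48). CXCR1, a receptor of CXCL8, had 0.945, 9.16 and 13.4 CPM over the 3 days and is not listed in CiMECs or GMECs.

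Genes whose products bind or cut CXCL12 were found for all 9 symbols searched, and 7 reached 10 CPM. MMP2 had 777, 751 and 74.9 CPM over the 3 days, 0.844 CPM in CiMECs and 0.0901 CPM in GMECs, and was 10.0-fold lower at day 8 than at day 4. MMP9, another protease that cuts CXCL12, had 5.44, 16.9 and 28.7 CPM over the 3 days, 4.96 CPM in CiMECs and 0.333 CPM in GMECs. CD44, a hyaluronan receptor, was 6.39-fold higher at day 4 than at day 0, with 889 CPM at day 4 and 139 CPM at day 0. GPC1, a heparan sulphate proteoglycan, had 182 CPM at day 0 and 0.405 CPM in GMECs. Over UMIs outside ribosomal protein genes HMGB1, which forms a complex with CXCL12, lay between 431 and 984 CPM, SDC1 between 130 and 262 CPM and SDC4 between 99.7 and 194 CPM. In day 4 over day 0, 1 of 7 was at least 4-fold higher and none lower, beside 5.35% and 5.77% of all genes, with a median log2 ratio of −0.18 beside −0.39 over all genes. In day 8 over day 4 it was 1 lower and none higher, beside 2.52% and 2.26% of all genes, with a median of −0.36 beside 0.12.

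Genes of the signals known to switch on CCL17 in other cells, the interleukin 4 and 13 receptors, STAT6, NF-κB and CSF2, varied over the tables in different ways. Of 16 symbols 11 were found and 7 reached 10 CPM, and IL4, IL13 and TSLP were listed in no table. IL4R had 15.1, 23.8 and 51.2 CPM over the 3 days, 3.46 CPM in CiMECs and 4.13 CPM in GMECs, and so was lower in both mammary cultures than in any BFRTV table. RELA had 87.1, 31.1 and 33.3 CPM over the 3 days, 16.0 CPM in CiMECs and 32.2 CPM in GMECs, or 21.6 and 49.5 CPM over UMIs outside ribosomal protein genes. Over UMIs outside ribosomal protein genes NFKB1 ranged between 8.12 and 52.9 CPM, NFKB2 between 14.9 and 26.4 CPM, RELB between 3.47 and 11.1 CPM and IL13RA1 between 8.83 and 39.1 CPM. CSF2 had 12.3 CPM at day 0, is not listed at day 4 or 8, and had 15.5 CPM in CiMECs and 2.18 CPM in GMECs. TNF, a cytokine of the same list, was under 10 CPM over all UMIs in every table and was named after its values were seen. Over UMIs outside ribosomal protein genes it had 11.3 CPM in CiMECs. TNF had 1.69, 0.562 and 3.23 CPM over the 3 days, 8.37 CPM in CiMECs and 4.32 CPM in GMECs. Other members found under 10 CPM were not highest in the mammary cultures. STAT6 had 8.996, 5.85 and 3.93 CPM over the 3 days, 2.42 CPM in CiMECs and 2.75 CPM in GMECs. IL33 had 0.4, 1.59 and 7.4997 CPM over the 3 days, and IL1RL1 was listed at day 0 only. Neither IL33 nor IL1RL1 is listed in CiMECs or GMECs. In GMECs over day 0, none of the 7 was 4-fold higher or lower, beside 6.04% and 11.7% of all genes. The median log2 ratio was −0.81 beside −0.50 over all genes. In CiMECs over day 8 the limit of 10 CPM was also taken outside ribosomal protein genes. The 7 genes tested there held TNF and not RELB, which was under 10 CPM in both. CSF2 was higher and IL4R lower, beside 2.96% and 17.7% of all genes, with medians of −0.63 for the list and −0.78 for all genes. These counts lie near the shares over all genes.

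Markers of other cell types were present at low levels, and their part in the chemokine values was not tested. Of 10 immune and dendritic genes, PTPRC, CD52 and LYZ were listed in no table, and CD14 was the only member over 10 CPM, at 29.2, 19.9 and 21.4 CPM over the 3 days, 10.9 CPM in CiMECs and 38.9 CPM in GMECs. The summed list had 33.7, 21.8 and 22.3 CPM over the 3 days, 11.4 CPM in CiMECs and 39.6 CPM in GMECs, the day 0 and day 8 sums being above those of CCL17. Endothelial genes summed to at most 3.01 CPM in any table. The 5 pericyte genes summed to 143, 105 and 73.7 CPM over the 3 days, 14.5 CPM in CiMECs and 12.1 CPM in GMECs, with RGS5 listed in no table. CSPG4, a proteoglycan, had 129, 33.6 and 9.74 CPM over the 3 days, whereas NOTCH3, a Notch receptor, had 11.6, 60.9 and 61.0 CPM and so was 5.25-fold higher at day 4 than at day 0.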

How the data were processed

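The authors deposited 1 table per group with raw UMI counts per gene and cell, made from 10x Genomics 3′ version 2 libraries. FastQC 0.10.1 and Cell Ranger are the tools in the submitters' processing notes. The genome build, the annotation and the cell filters are not given in the sources used. Of the 16677 symbols, 16296 occur in RefSeq ARS1.2. No cell was removed and no doublet caller was run. Here counts were summed per table and scaled to CPM, with exact Poisson intervals for levels, conditional binomial intervals for ratios and Clopper-Pearson intervals for shares (SciPy 1.17.1, Python 3.11.15). A gene listed with no counts was set at 3 UMIs and an unlisted gene at the fewest cells of its table, 11 or 6. No test was run, because there is 1 pooled library per group. Genes with at least 10 CPM in either table were counted at a 4-fold limit. Cells were thinned without replacement. Scaling by TMM (edgeR 4.0.16) and by median of ratios, cell filters and class limits were varied. The scripts for ratios and thinning were tested on simulated data. The named genes were the members, the members of fixed lists that reached 10 CPM, and the 5 genes most like each member. The members and lists were chosen with earlier results of these data known.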

Additional observations from a re-analysis of the deposited data

How the results depend on the processing

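No ratio of CCL17 or CXCL12 between whole tables changed direction under any alternative scaling or filter tried. Within marker classes the direction did change for some. CCL17 for day 4 over day 0 was 0.491 in epithelial-marked cells, and CXCL12 for day 8 over day 4 was 1.56 in mesenchymal-marked cells. Ratios below are levels of the named table over the other. With TMM factors CCL17 was 2.16 for day 4 over day 0, 0.381 for day 8 over day 0, 0.857 for CiMECs over GMECs, 4189.9 for CiMECs over day 8 and 1863 for GMECs over day 0, and CXCL12 was 29.5 for day 4 over day 0, 4.94 for day 8 over day 0 and 0.167 for day 8 over day 4. With median-of-ratios factors the same values were 2.18, 0.387, 0.874, 4397 and 1948 for CCL17 and 29.9, 5.02 and 0.168 for CXCL12. Totals without ribosomal protein genes gave 0.604 for CCL17 in CiMECs over GMECs, and totals of all genes gave 1878.5 for CiMECs over day 8 and 933 for GMECs over day 0. Without the 5% of barcodes with the most UMIs, CCL17 was 3.19 for day 4 over day 0, 0.626 for day 8 over day 0, 0.746 for CiMECs over GMECs and 2414 for GMECs over day 0, and CXCL12 was 3.88 for day 8 over day 0 and 0.159 for day 8 over day 4. In epithelial-marked cells the same filter gave CCL17 ratios of 0.463 for day 4 over day 0, 0.744 for CiMECs over GMECs and 175 for GMECs over day 0. With at least 3000 UMIs outside ribosomal protein genes per cell CiMECs over GMECs was 0.695, and with cells at or above the lowest BFRTV depth it was 0.694.

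With LOC102169211 UMIs added, CCL17 was 2.59 for day 4 over day 0, 0.623 for day 8 over day 0, 0.241 for day 8 over day 4, 0.744 for CiMECs over GMECs, 1179 for CiMECs over day 8 and 1128.5 for GMECs over day 0. Without the 1 day 0 cell with the most CCL17 it was 2.06 for day 4 over day 0, 0.381 for day 8 over day 0 and 1593 for GMECs over day 0. The filter within classes, the depth limit, the added neighbour and the left-out cell were chosen after seeing the data. Stricter class limits gave CCL17 levels of 191 CPM (day 0) and 89.1 CPM (day 4) in epithelial-marked cells and 1.83 CPM (day 4) and 0 CPM (day 8, 0 of 50 cells, which allows a share of up to 7.11%) in mesenchymal-marked cells. For CXCL12 they gave 18.5 CPM (day 4) and 6.46 CPM (day 8) in epithelial-marked and 966 CPM (day 4) and 1629 CPM (day 8) in mesenchymal-marked cells. The 12 shares of genes past 4-fold stayed within 1.5 times without the 10 CPM minimum, and of 24 shares of cells with a UMI 20 moved beyond their counting interval with no thinning, thinning to 1500 UMIs or a minimum of 2 UMIs. Apart from the limits of a filter or total, the cause of these changes was not tested. No paired analysis was possible because each group is 1 pooled table without sample names, and for the same reason no sample could be left out in turn. CXCL12 in CiMECs and GMECs is limited by the listing of genes found in 6 or more cells, which sets no upper limit in UMIs. Its ratio at 6 UMIs was 0.00168 for CiMECs over day 8 and 0.00585 for GMECs over day 0 with TMM factors, and 0.00176 and 0.00612 with median-of-ratios factors.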
